A study of Mus musculus with 4 samples.

Results

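RNA from 7242 loci without a gene name was described in CD4+ T cells with *Cic* deleted and in controls, on day 3 of activation and before it. These loci were selected on the values themselves: the deposited tables list 31171 loci, 7265 of them carry no name, and 7242 of those reached an FPKM of at least 1 in at least 1 of the 4 libraries. FPKM is the number of sequenced fragments scaled to the length of the transcript and to the total of mapped fragments. The libraries were made from spleen CD4+ T cells of C57BL/6J mice aged 10 to 12 weeks, 1 library for each group. The groups were cKO cells (Cic f/f; Cd4-Cre) on day 3, WT cells (Cic f/f) on day 3, cKO cells on day 0 and WT cells on day 0. WT mice carry the floxed *Cic* alleles without Cre. Cre driven by the *Cd4* promoter acts in T cells, including the CD8 lineage, which passes through a CD4-expressing stage. Day 3 cells had been cultured on plate-bound antibodies to CD3 and CD28 at 2 μg/ml each, and day 0 cells were called naïve. The labels give their gate as CD25-negative, CD44-high and CD62L-low, whereas the methods of the study describe a CD44-low, CD62L-high sort, and the files do not settle which was used. With 1 library for each group there was no replicate check and no test, so every difference is a description of 4 libraries.

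A locus receives no name when the transcripts that Cufflinks assembles from mapped reads match no gene of the reference annotation. Such loci can hold long non-coding RNAs, pieces of introns or of transcript ends, pseudogenes, small RNA genes, and the antigen receptor loci, whose variable, joining and constant segments are annotated apart from ordinary genes. CIC (capicua) is a transcriptional repressor that binds octamers of a known kind in target promoters. FPKM divides by transcript length, so 1 fragment on a very short locus counts for far more than 1 fragment on a long one.

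Where a RefSeq gene starts inside an unnamed locus, the letters around that start can be shown. Promoter windows of 250 bases before to 50 bases after an annotated start were taken from RefSeq (GRCm38.p6), and 81 of these lay wholly inside an unnamed locus, in 140 loci. The windows of *Gm38326* and *Gm41331*, both long non-coding RNA genes on the plus strand, are printed because they start inside loci on which the genotype and activation results turn: *Gm38326* in loci at or near 0 in WT, and *Gm41331* in a long locus lower on day 3. Lower-case letters precede the annotated start and capitals follow it. The *Gm38326* window (chr3:60788111-60788410) lies in XLOC_017858 and XLOC_018412, and the *Gm41331* window (chr15:60141576-60141875) in XLOC_009698.
Gm38326: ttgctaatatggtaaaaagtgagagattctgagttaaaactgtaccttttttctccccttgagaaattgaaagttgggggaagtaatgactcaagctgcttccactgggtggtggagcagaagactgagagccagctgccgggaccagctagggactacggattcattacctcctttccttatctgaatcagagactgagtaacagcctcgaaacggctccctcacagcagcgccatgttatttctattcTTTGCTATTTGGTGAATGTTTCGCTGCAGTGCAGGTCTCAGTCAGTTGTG
Gm41331: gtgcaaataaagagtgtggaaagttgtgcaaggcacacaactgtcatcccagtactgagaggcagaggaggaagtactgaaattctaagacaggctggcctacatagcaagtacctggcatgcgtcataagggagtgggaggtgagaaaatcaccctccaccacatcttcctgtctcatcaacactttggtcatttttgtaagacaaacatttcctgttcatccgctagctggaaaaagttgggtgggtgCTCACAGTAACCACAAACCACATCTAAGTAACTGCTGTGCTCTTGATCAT
The CIC octamers TGAATGAA, TGAATGGA, TCAATGAA and TCAATGGA were searched on both strands. Neither printed window held one. They occurred in 3.84% of all 32851 RefSeq promoter windows of this length and in 7 of the 81 windows inside unnamed loci (8.64%). A match is a description of letters and not a binding site.

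The unnamed loci were short. Their median length was 1016 bp (range 25 to 953395 bp), against 28145 bp for the 11965 named loci that reached the same FPKM. In all, 3499 (48.3%) measured from 200 to under 1000 bp, 2554 (35.3%) from 1000 to under 10000 bp and 1131 (15.6%) 10000 bp or over, while 54 measured from 100 to under 200 bp and 4 less. The long ones were mostly not separate places in the genome: 898 members (12.4%) carried exactly the coordinates of a named locus, at 213 such places, with a median length of 109889 bp and as many as 39 members at *Svil*. Of the 6344 others, the median length was 901 bp, and 3.81% were 10000 bp or longer. No member overlapped a named locus only in part.

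Outside the named loci lay 6343 members (87.6%), with a median distance of 6128 bp to the nearest named locus. The distance was under 1 kb for 988, from 1 kb to under 5 kb for 1845, from 5 kb to under 50 kb for 2880 and at least 50 kb for 630. The last of the 7242 was the mitochondrial genome, where no named locus stood. Chromosome 1 held 595 members, 8.22% of them, against 5.78% of the named loci. Chromosome 12 held 406 members, 5.61% against 3.42%, and 32 of these lay in the immunoglobulin heavy chain region. Shares were the other way round on chromosome 11 (6.32% against 8.68%) and chromosome 7 (5.07% against 7.40%). The submitters' notes name mm9, but 44.4% of the ends of 21286 named genes equalled those of RefSeq genes on GRCm38.p6, and 0.729% of 19744 those on NCBIM37, the assembly of mm9. Coordinates are therefore given as the files have them, 1-based, and read on GRCm38.

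By that annotation 3967 members (54.8%) held no RefSeq gene, 979 lay on long non-coding RNA genes, 928 on protein-coding genes and 228 on pseudogenes. Antigen receptor regions, with or without an annotated segment at the locus, accounted for 146, tRNA genes for 53 and other small RNA genes for 42.

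Most of these loci rested on few fragments. In members that stood alone at their coordinates, FPKM moved in even steps, from which whole fragment counts could be recovered: within 0.05 of a whole number for 97.2% to 97.8% of values in each library. One fragment on a 1000 bp locus was worth 0.124 FPKM in cKO and 0.131 in WT on day 3, against 0.124 in cKO and 0.151 in WT on day 0. The 5580 members with whole counts in every library, none above 200, held 51149 fragments in cKO and 41864 in WT on day 3, against 126889 in cKO and 94242 in WT on day 0. Their medians were 4 and 3 fragments in cKO and WT on day 3, and 14.0 and 10.5 on day 0. In its deepest library 96.3% of these loci had at least 10 fragments, 55.5% had 10 to 19, 603 had exactly 10 and 102 exactly 9. Loci with fewer than 10 fragments in every library were thus rare among those listed.

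The minimum of 1 FPKM removed little. XLOC_008969, on the long non-coding RNA gene *Gm47814*, lay just inside it with a highest value of 1.01 FPKM (cKO day 0, 9 fragments). XLOC_017144 did so with 1.01 FPKM (WT day 3, 9 fragments). Just outside were XLOC_006464 at 0.987 FPKM (cKO day 3) and XLOC_012537 at 0.935 FPKM (WT day 0). The highest value of a member had a median of 2.89 FPKM, and was under 5 FPKM for 6032 of the 7242 (83.3%) and at least 20 FPKM for 164.

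Day 3 FPKM was held almost wholly by 1 locus of 25 bp. XLOC_020375 (chr4:120616668-120616692), with no RefSeq gene and 6995 bp from *Gm8439*, was listed at 6705550 FPKM in cKO and 4592620 in WT on day 3, against 132754 in cKO and 0 in WT on day 0. That was 99% of all FPKM of unnamed loci in cKO and 99.1% in WT cells on day 3, and 74.4% in cKO on day 0. The unnamed loci together summed to 89.2% of all FPKM in cKO and 86.1% in WT on day 3, against 23% in cKO and 4.39% in WT on day 0. Among loci of at least 200 bp they held 1.86% in cKO and 1.82% in WT on day 3, against 4.15% in cKO and 4.10% in WT on day 0. The order of the days thus turned round once loci under 200 bp were set aside.

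**Figure D1:**
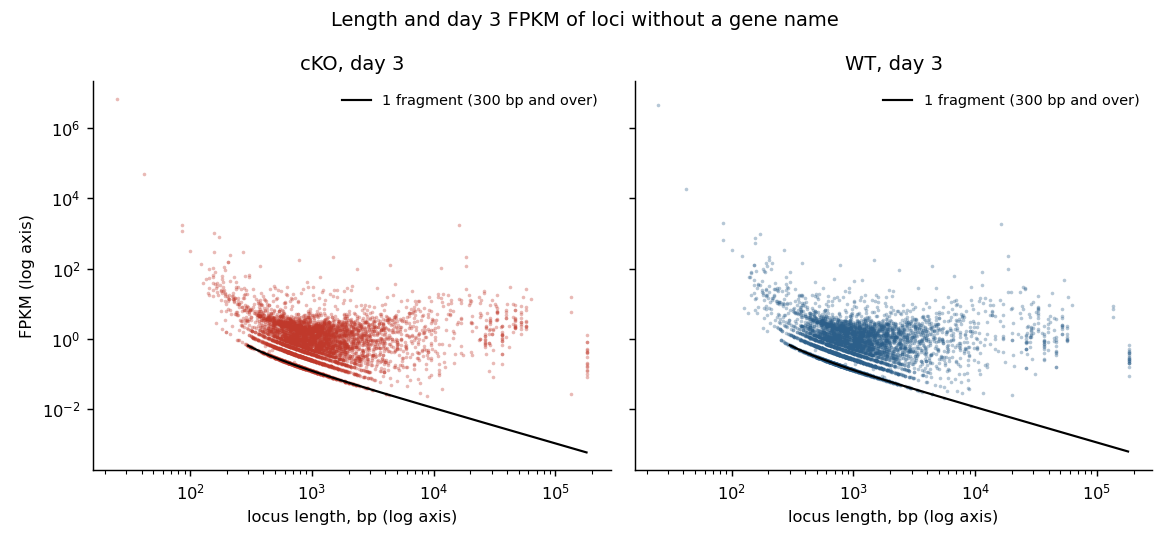
Day 3 FPKM of each unnamed locus (vertical, log axis) against its length in bp (horizontal, log axis), for cKO and WT cells; loci at 0 and the 898 that share a named locus's coordinates are not drawn, and the line is the value of 1 fragment. The 25 bp locus stands alone at 6705550 FPKM in cKO and 4592620 FPKM in WT, and the 4 loci under 100 bp lie above nearly all others.

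The next highest loci were also short. XLOC_012759 (chr17:56005865-56005906, 42 bp), on *Stap2*, a signal-transducing adaptor gene, and 258 bp from its named locus, had 47744 FPKM in cKO and 18804 in WT on day 3, against 19111 in cKO and 0 in WT on day 0. The 85 bp locus XLOC_001411 (chr1:45857741-45857825, pseudogene *Gm5526*) had 1184 and 1928 FPKM in cKO and WT on day 3, against 308 and 850 on day 0. XLOC_013634 (chr18:73533453-73533537), also 85 bp, had 1717 and 643 FPKM in cKO and WT on day 3, against 0 and 121 on day 0. Between these 85 bp loci the values stood in ratios of 3 in WT day 3 and 7 in WT day 0, and of 1.45 in cKO day 3. In WT these are ratios of small whole numbers.

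Above the 200 bp mark the leading locus was the mitochondrial genome (XLOC_029875, 16292 bp). Its FPKM was 1717 in cKO and 1843 in WT on day 3, against 1561 in cKO and 1869 in WT on day 0. It held 11.4% and 13.6% of the FPKM of members of at least 200 bp in cKO and WT on day 3, against 6.47% and 8.48% on day 0. The small RNA locus XLOC_023798 (chr6:47781631-47781901) covers *Rny3*, a Y RNA that binds the Ro60 protein, and had 299.6 and 341 FPKM in cKO and WT on day 3, against 216 and 185 on day 0. Its neighbour XLOC_023799, over *Rny1* and picked after its values were seen, had 66.5 and 77.9 FPKM in cKO and WT on day 3, against 27.2 and 24.9 on day 0. Day 3 over day 0 passed the size rule for *Rny1* in WT alone. That rule, used throughout, asks for an absolute log2((a + 0.1)/(b + 0.1)) over 1.5, among loci with at least 1 FPKM in either library.

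Of the remaining loci high on day 3, XLOC_030934 (chrX:20581028-20581184, pseudogene *Gm14539*) had 998.9 FPKM in cKO and 745 in WT on day 3, against 152 in cKO and 196 in WT on day 0. XLOC_007716 (chr13:3298867-3299038, pseudogene *Gm9616*) had 804 and 933 FPKM in cKO and WT on day 3, against 576 and 696 on day 0. The 100 bp locus XLOC_003164 (chr10:73202744-73202843), inside the protocadherin gene *Pcdh15*, had 308 and 346 FPKM in cKO and WT on day 3, against 71.6 and 0 on day 0. *Gm9616* was thus high at both times, while *Gm14539* was higher on day 3 by the size rule in both genotypes. Outside named loci and from 200 bp up, XLOC_016766 (chr2:27539709-27539921, *Gm25541*), XLOC_001506 (chr1:72255012-72256494, *D230017M19Rik* and *Gm25939*) and XLOC_001839 (chr1:171502443-171503222) were among those of highest mean, with 116 to 249 FPKM across the libraries. None of these 3 passed the size rule in any comparison.

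For checking the libraries, *Cic* had 12.2 FPKM in cKO and 17.8 in WT on day 3, against 24.9 in cKO and 25.4 in WT on day 0. The locus value covers exons outside the floxed part as well and does not check the deletion. All 5 T-cell markers were present in each library, with summed FPKM of 622 to 919. *Rn45s*, the 45S ribosomal RNA locus, was listed at 0 on day 3 in both genotypes, against 2481 FPKM in cKO and 2387 in WT on day 0.

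Activation was accompanied by lower values at most unnamed loci in both genotypes. In cKO, 3707 of 6855 measured loci (54.1%) passed the size rule as lower on day 3, against a background of 24.8% over all loci, and 806 (11.8%) were higher, against 15.1%. In WT, 3448 of 6303 (54.7%) were lower, against 25.1%, and 698 (11.1%) were higher, against 16.1%. Median log2 ratios of day 3 to day 0 were -1.72 in cKO and -1.73 in WT, where those of named loci were 0.35 and 0.38. Relative to the named medians, 4169 of the 6855 loci were lower and 701 higher in cKO, and 3927 of the 6303 lower and 600 higher in WT. No share over all loci stands beside these centred counts. In bulk libraries fewer cells of a type and less RNA per cell cannot be told apart. A locus could enter through its day 0 library alone, so that such a locus had to be lower on day 3, and the counts describe these members without supporting a direction.

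Of 5916 loci measured in both genotypes, 2630 were lower on day 3 in both, which is 85.1% of those lower in cKO and 81.1% of those lower in WT. Another 448 were higher in both (69.7% and 77.5%). Opposite calls were made for 26 loci higher in cKO and lower in WT, and for 13 the other way. No share over all loci stands beside these overlaps, so they do not set the unnamed loci apart. An FPKM of at least 1 in both day 0 libraries and in neither day 3 library was the most frequent pattern (2894 members, 40%), followed by at least 1 FPKM in all 4 (1378, 19.0%). Only 469 (6.48%) reached it in both day 3 libraries and neither day 0 library.

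Markers of some other cells were also lower on day 3. The 3 macrophage and monocyte markers *Csf1r*, *Lyz2* and *C1qa* summed to 0.0858 FPKM in cKO and 1.13 in WT on day 3, against 47.5 in cKO and 148 in WT cells on day 0, and 2 of them in cKO and 1 in WT were at 0 on day 3. For the neutrophil markers *Mpo*, *Elane* and *S100a8* the sums were 0.0444 and 0.0941 FPKM in cKO and WT on day 3, against 15.7 and 45.0 on day 0, with 2 at 0 in each day 3 library. For the erythroid markers *Klf1* and *Hba-a1* they were 0.306 and 2.21 FPKM in cKO and WT on day 3, against 26.5 and 64.7 on day 0, with 1 at 0 in cKO on day 3. The erythroid difference lay in *Hba-a1*, with 0 and 0.264 FPKM in cKO and WT on day 3, against 26.2 and 62.8 on day 0, while *Klf1* had 0.306 and 1.94 FPKM on day 3, against 0.306 and 1.96 on day 0. Sums of B-cell and CD8 T-cell markers, given with the antigen receptor loci, were higher on day 3, but in cKO *Cd8b1* and *Cd79a* were each lower. The part of all these markers in the values of the unnamed loci was not tested.

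The difference varied with what lay at the locus. Loci without a RefSeq gene were lower on day 3 in 65.1% of cases in cKO (2440 of 3747) and 64.8% in WT (2194 of 3384). On long non-coding RNA genes the shares were 53.5% and 56.6%, on protein-coding genes 42.3% and 44.4%, and in antigen receptor regions 33.6% and 30.4%. Loci on tRNA genes, with a median length of 260 bp, went the other way. Of 51 in cKO 22 were higher (43.1%) and 4 lower, and of 53 in WT 18 were higher (34%) and 5 lower. The methods of the study describe mRNA libraries, and whether these values follow tRNA abundance was not tested. Among the 35 tRNA loci of at least 200 bp, 33.3% were higher in cKO and 28.6% in WT. The shares varied with length and distance as well. Under 200 bp, 46.6% of loci were higher in cKO and 41.4% in WT. At 50 kb or more from a named locus 32.7% were higher and 35.8% lower in cKO, with 30.2% and 39.1% in WT. Within 1 kb 7.01% were higher and 53.1% lower in cKO, with 7.67% and 53.0% in WT. The lower share was largest from 5 kb to under 50 kb, at 63.3% in each genotype.

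**Figure D2:**
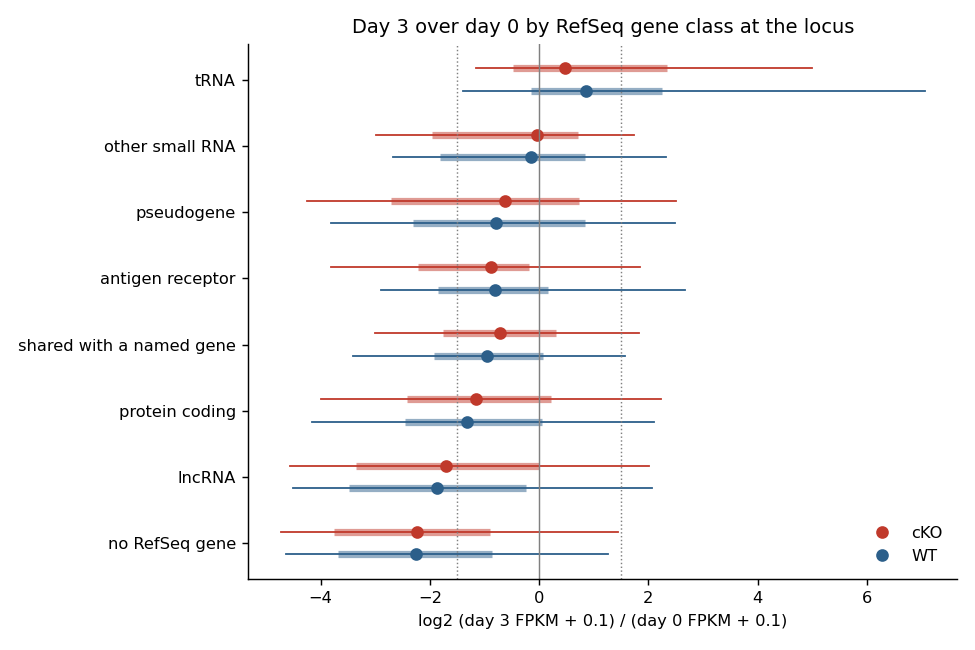
Log2 ratio of day 3 to day 0 FPKM (horizontal, 0.1 added to each) by RefSeq gene class at the unnamed locus (vertical), with cKO above WT in each class; points are medians, thick bars quartiles, thin bars the central 80% of loci, and dotted lines the size rule. tRNA loci have medians of 0.47 in cKO and 0.85 in WT, and loci without a RefSeq gene medians of -2.24 and -2.26.

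Among tRNA loci, which encode the adaptors that carry amino acids to the ribosome, XLOC_007756 (chr13:21927865-21928051, *n-TSaga6*, for serine) had 40.6 FPKM in cKO and 77.9 in WT cells on day 3, and was listed at 0 on day 0 in both. XLOC_007764 (chr13:23412850-23413009, *n-TAagc7*, for alanine) had 36.2 and 15.0 FPKM in cKO and WT on day 3 and was also at 0 on day 0 in both. The highest in FPKM, XLOC_007762 (chr13:22022340-22022496, *n-TScga1*), did not pass the rule, with 293 and 531 FPKM in cKO and WT on day 3, against 239 and 243 on day 0. All 3 measure under 200 bp, as did 4 of the 5 loci named for the highest ratio of day 3 to day 0 in cKO and 5 of the 5 in WT.

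Longer loci also differed between the days. XLOC_013068 (chr18:60358616-60363410, 4795 bp, on the pseudogene *Gm8714* and 12618 bp from *Iigp1*, an interferon-inducible GTPase gene) had 36.0 FPKM in cKO and 27.6 in WT on day 3, from 1566 and 1132 fragments, and 0 on day 0 in both. Set against an assumed 3 fragments in each day 0 library, it was 522-fold higher on day 3 in cKO and 328-fold higher in WT. Whether the listed 0 is a true count was not tested. XLOC_009698 (chr15:60130044-60187425, 57382 bp), the locus of the *Gm41331* window above, was the opposite case, with 26.8 FPKM in cKO and 15.3 in WT on day 3, against 111 in each genotype on day 0. Its log2 ratios were -2.05 in cKO and -2.84 in WT. Named by the same rule as the largest falls were 5 of the 22 members that share the coordinates of *Slc12a7* (chr13:73733097-73818851), a potassium-chloride cotransporter gene. These 22 had medians of 0.445 FPKM in cKO and 0 in WT on day 3, against 11.7 in cKO and 10.1 in WT on day 0. The highest of them on day 3 had 2.60 FPKM and the lowest on day 0 had 4.56. *Slc12a7* itself had 5.18 and 4.94 FPKM in cKO and WT on day 3, against 37.7 and 34.3 on day 0. Fragments of such a bundle may be divided among its members in more than 1 way.

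The short loci of extreme ratio were mostly seen in few libraries. XLOC_009110 (chr14:73138778-73138970, on *Rcbtb2*) had 0 FPKM on day 3 in both genotypes, against 17.3 in cKO and 6.48 in WT on day 0. XLOC_024038 (chr6:140684641-140684852, *Gm30215*) had 0 on day 3 in both, against 9.43 and 18.5 FPKM in cKO and WT on day 0. XLOC_026360 (chr7:42107124-42107305, *Ccnb1-ps*, a cyclin B1 pseudogene) had 51.9 and 98.0 FPKM in cKO and WT on day 3, against 2.05 and 0 on day 0. In these 3 the genotypes went the same way. XLOC_003240 (chr10:96398799-96398995) and XLOC_020196 (chr4:33505201-33505396) had 1.60 and 0 FPKM in cKO on day 3, against 18.0 and 19.9 in cKO on day 0. In WT they had 0 and 1.63 FPKM on day 3, against 24.5 and 4.14 on day 0.

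Unnamed loci also came in runs. Chained where the gap to the next was under 2 kb (2000 bp), 3829 of the 6344 members outside shared loci (60.4%) fell into 1254 runs, and 32 runs had at least 8 distinct coordinates. Summed FPKM was lower on day 3 in 26 of these 32 in cKO and in 28 in WT. The runs described next were chosen after their values were seen. At 290377 to 324309 bp from *Gata3*, the nearest named locus and the master regulator of TH2 cells, 9 loci (chr2:9527074-9566413) summed to 36.9 FPKM in cKO and 49.6 in WT on day 3, against 0.149 in cKO and 0.207 in WT on day 0. Between *Lrrc32*, which encodes the latent TGF-β receptor GARP, and *2210018M11Rik*, 14359 to 39238 bp from the closer of them, 11 loci (chr7:98516743-98565533) summed to 62.4 and 63.2 FPKM in cKO and WT on day 3, against 0.845 and 1.97 on day 0. All members of both runs that were measured passed the rule as higher on day 3 in both genotypes (9 and 9 in the *Gata3* run, 11 and 10 in the *Lrrc32* run). At 19701 to 28038 bp from *Nabp1*, which encodes a single-stranded DNA binding protein, 8 loci (chr1:51498124-51509465) summed to 18.1 and 31.4 FPKM in cKO and WT on day 3, against 0.266 and 0.0911 on day 0. In the other direction, 8 loci at 5921 to 23742 bp from *Prkch* (chr12:73784106-73803374), a protein kinase C gene, summed to 0.425 and 1.02 FPKM in cKO and WT on day 3, against 40.8 and 29.1 on day 0. Recovered fragments in the *Prkch* run were 28 and 42 in cKO and WT on day 3, against 633 and 455 on day 0.

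A run of 21 loci lay on *Bach2*, a transcription factor gene that restrains effector differentiation of T cells. Together with 2 other loci it gave 23 members, chosen after their values were seen, all on the *Bach2* gene of RefSeq. Every one had a ratio of day 3 to day 0 below 0, from -1.94 to -0.54 in cKO, where 1 passed the rule, and from -2.97 to -0.81 in WT, where 6 passed. Those are 4.35% and 26.1% of the members, against 24.8% and 25.1% lower over all loci. Summed FPKM was 391 in cKO and 279 in WT on day 3, against 726 in cKO and 654 in WT on day 0. The cKO over WT ratio on day 3 was above 0 in 21 of 22 measured members, with a median of 0.52, and none passed the rule. The named *Bach2* locus had 23.8 FPKM in cKO and 15.6 in WT on day 3, against 24.2 in cKO and 23.4 in WT on day 0. These members share 1 gene and are not separate measurements of it.

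Antigen receptor loci, taken as families by region after their values were seen, differed between regions. Some of them hold no annotated segment, and the α-chain region also holds δ-chain segments. The β-chain locus XLOC_022524 (chr6:41531946-41550442), over the joining and constant segments *Trbc1* and *Trbc2*, had 219.5 and 222 FPKM in cKO and WT on day 3, against 227 and 198 on day 0. At the same coordinates XLOC_022525 had 119 and 99.8 FPKM in cKO and WT on day 3, against 102 and 94.7 on day 0. Both were even across the 4 libraries. Of 65 measured loci of the α-chain region, in cKO 25 were lower and 1 higher on day 3, and of 63 in WT 26 were lower and none higher. Of 26 β-chain loci 5 were lower in cKO and 3 in WT. Lower shares in cKO and WT were 38.5% and 41.3% for the α chain and 19.2% and 11.5% for the β chain. Over all loci they were 24.8% and 25.1%.

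The 7 loci of the γ-chain region, which γδ T cells and some other T cells transcribe, went the other way. Summed FPKM was 84.8 in cKO and 224 in WT on day 3, against 28.2 in cKO and 42.03 in WT on day 0. By the rule 4 of 7 were higher on day 3 in cKO (57.1%) and 6 of 7 in WT (85.7%), against 15.1% and 16.1% over all loci. XLOC_007275 (chr13:19304630-19311305, over *Trgc2*) had 23.7 FPKM in cKO and 63.1 in WT on day 3, against 7.44 in cKO and 6.64 in WT on day 0. XLOC_006845 (chr13:19210108-19263754, over *Trgc1* and *Trgc3*) had 15.4 and 48.7 FPKM in cKO and WT on day 3, against 10.7 and 13.2 on day 0. In all 7 loci cKO was below WT on day 3, with log2 ratios from -1.66 to -1.11, and 1 of the 7 passed the rule. The constant segment of the δ chain lies in XLOC_008271 (chr14:54122885-54147525), which had 13.2 FPKM in cKO and 29.8 in WT on day 3, against 11.2 in cKO and 11.6 in WT on day 0. *Cd8a*, of the 2 CD8 T-cell markers, had 3.59 and 8.36 FPKM in cKO and WT on day 3, against 0.469 and 0.353 on day 0. *Cd8b1* had 5.81 and 6.98 FPKM in cKO and WT on day 3, against 7.27 and 4.11 on day 0. The sum of both was 9.40 and 15.3 FPKM on day 3, against 7.74 and 4.46 on day 0. Neither CD8 marker was at 0 in any library, and their part in the γ-chain values was not tested.

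**Figure D3:**
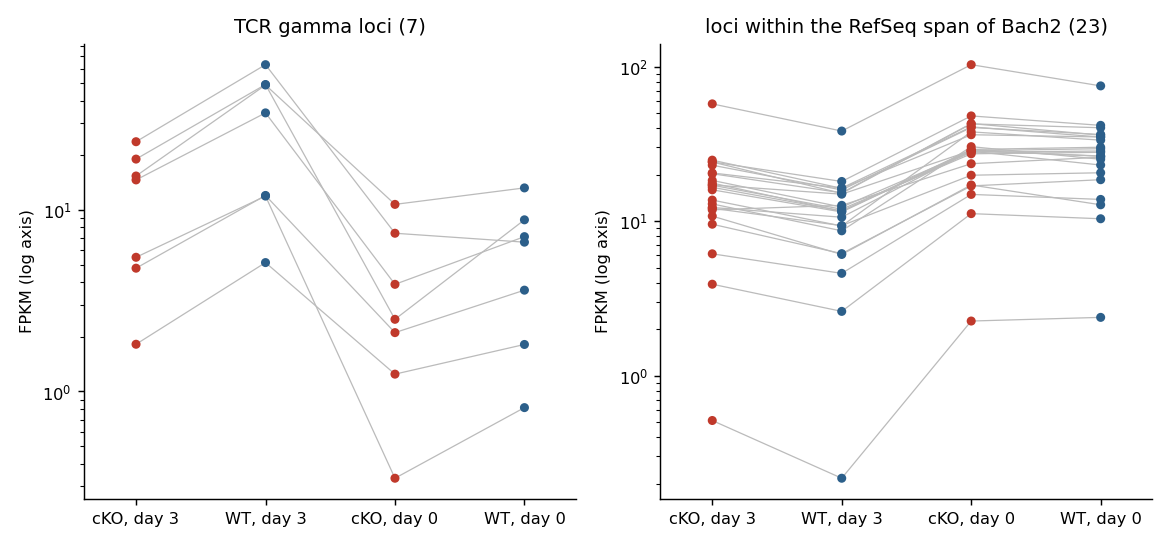
FPKM (vertical, log axis) of the 7 unnamed loci of the T-cell receptor γ region and of the 23 on *Bach2* in the 4 libraries, with 1 line for each locus. All 7 γ loci lie lower in cKO than in WT on day 3, where their sums were 84.8 and 224 FPKM, and all 23 *Bach2* loci lie lower on day 3 than on day 0 of the same genotype.

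Immunoglobulin loci split by segment. The locus of *Ighm*, the μ heavy chain, with the joining segments (XLOC_006392, chr12:113418394-113429798) had 103 and 81.2 FPKM in cKO and WT on day 3, against 190 and 148 on day 0. XLOC_006388 (chr12:113325106-113358094), over *Ighg1* and *Ighg3*, constant segments of IgG, had 17.7 and 16.98 FPKM in cKO and WT on day 3, against 0.378 and 0.0923 on day 0. XLOC_006385 (chr12:113269497-113277510), over *Ighe*, had 1.81 and 3.37 FPKM in cKO and WT on day 3 and 0 on day 0 in both. Other constant segments went the other way. XLOC_006384 (chr12:113258708-113259517), over *Igha*, had 0 FPKM on day 3 in both genotypes, against 7.07 in cKO and 8.10 in WT on day 0. Over *Ighg2c* and *Ighg2b* (chr12:113287309-113307913), XLOC_006387 had 0.338 and 0.354 FPKM in cKO and WT on day 3, against 8.49 and 2.92 on day 0, and XLOC_006386 had 2.88 and 2.85, against 8.29 and 3.70. Switched classes thus differed among themselves, and the last of these loci did not pass the rule. Of 32 heavy chain loci in cKO 15 were lower and 12 higher on day 3, and of 26 in WT 8 were lower and 11 higher. Lower shares were 46.9% and 30.8% in cKO and WT, against 24.8% and 25.1% over all loci. Higher shares were 37.5% and 42.3%, against 15.1% and 16.1%. The κ-chain constant locus XLOC_022667 had 124 and 122 FPKM in cKO and WT on day 3, against 144 and 116 on day 0. The 3 B-cell markers *Cd79a*, *Cd79b* and *Ms4a1* were detected in each library and summed to 34.7 FPKM in cKO and 23.4 in WT on day 3, against 25.9 in cKO and 11.5 in WT on day 0. *Cd79a* alone was lower on day 3 in cKO, at 4.14 FPKM against 4.41. The part of the B-cell markers in the immunoglobulin values was not tested.

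Genotype differences were fewer and, among these members, lay more often towards higher values in cKO. On day 3, 497 of 3454 measured loci (14.4%) were higher in cKO, against a background of 3.96% over all loci, and 247 (7.15%) were lower, against 2.64%. On day 0, 622 of 6463 (9.62%) were higher in cKO, against 3.83%, and 337 (5.21%) were lower, against 3.04%. Medians of the log2 ratio of cKO to WT were 0.29 on day 3 and 0.19 on day 0. Named loci had 0.743% higher in cKO and 1.24% lower on day 3, with 0.482% and 1.78% on day 0. A member could enter through a cKO library alone. At least 1 FPKM was reached by 677 members in cKO day 0 only, against 217 in WT day 0 only. The counts thus describe these members without supporting a direction. Named small RNA loci, which were longer (median 23580 bp), had 15.7% of loci higher in cKO and 11.2% lower on day 3, with 15.2% and 6.06% on day 0. The shares of unnamed loci were smaller at greater depth. Among loci with whole counts of 20 to 200 fragments in the deeper library, 4.56% were higher in cKO and 1.14% lower on day 3, with 2.34% and 0.747% on day 0. All loci, at any depth, had 3.96% higher and 2.64% lower on day 3, with 3.83% and 3.04% on day 0. At this depth the unnamed loci thus stood near or under the background, except for lying slightly above it for higher in cKO on day 3. With 50 to 200 fragments 5 of 168 were higher on day 3 and 2 of 589 on day 0, and none was lower.

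**Figure D4:**
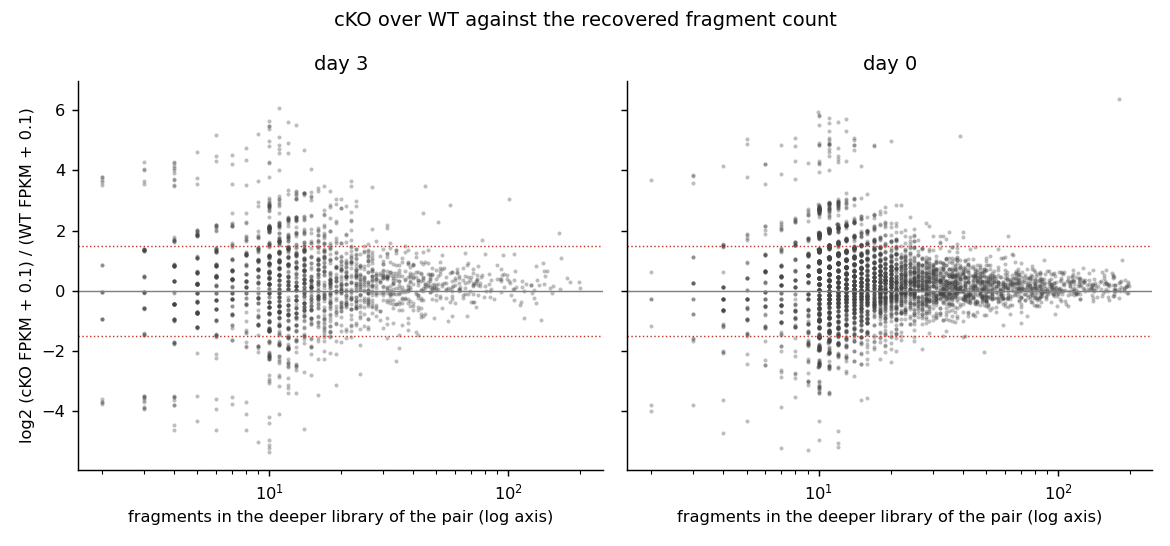
Log2 ratio of cKO to WT FPKM (vertical, 0.1 added to each) against the recovered fragment count in the deeper library of the pair (horizontal, log axis), on day 3 and on day 0, for unnamed loci with whole fragment counts of at most 200 in every library; dotted lines mark 1.5 and -1.5. The spread narrows to the right: of loci with 50 to 200 fragments, 5 of 168 on day 3 and 2 of 589 on day 0 exceed 1.5, and none is under -1.5.

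Of 2675 loci measured at both times, 42 were higher in cKO at both, which is 12.2% of the 343 higher on day 3 and 23.7% of the 177 higher on day 0. Another 12 were lower in cKO at both (9.09% of 132 and 8.39% of 143). For these overlaps too no share over all loci is at hand. With at least 5 FPKM in either library at both times, 5 were higher in cKO at both, listed after their values were seen: XLOC_012598, XLOC_021943, XLOC_018411, XLOC_017858 and XLOC_018412. XLOC_012598 (chr17:23548699-23548834, 136 bp, *n-TRcct2*, an arginine tRNA gene) had 51.1 FPKM in cKO and 5.61 in WT on day 3, against 6.14 in cKO and 0 in WT on day 0. XLOC_021943 (chr5:23631079-23631264, 186 bp, in the kinase gene *Srpk2*) had 22.5 and 7.53 FPKM in cKO and WT on day 3, and 5.77 and 0 on day 0. The other 3 lay side by side on chromosome 3.

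XLOC_018411 (chr3:60769568-60776453, over the pseudogene *Gm33707*) had 8.05 FPKM in cKO and 0 in WT cells on day 3, and 25.7 FPKM in cKO and 0 in WT on day 0. These values came from 508 and 1623 fragments in cKO and none in WT. Set against an assumed 3 fragments in WT, cKO was 160-fold higher on day 3 and 443-fold higher on day 0. Whether the listed 0 is a true count was not tested. XLOC_017858 (chr3:60776564-60796464), in which the *Gm38326* window lies, had 12.5 FPKM in cKO and 0.0257 in WT cells on day 3, and 31.4 in cKO and 0 in WT on day 0. XLOC_018412, at the same coordinates, had 10.3 FPKM in cKO and 0 in WT cells on day 3, and 9.93 in cKO and 0 in WT on day 0. In all 3 the genotypes lay apart at both times.

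These stood in a stretch of 14 unnamed loci, examined after their values were seen, that lies on both sides of *Mbnl1*, an RNA splicing regulator gene. Of the 14, 11 were under 0.1 FPKM in both WT libraries, spanning chr3:60328566-60796464, and 10 of the 11 were at 0 in both. Because the 11 were picked for low WT values, their WT counts follow from that choice and support no genotype difference. In the 9 with recovered fragments cKO held 516 fragments on day 3 and 1890 on day 0, and WT held 0 at each time. Without XLOC_018411 the counts were 8 in cKO and 0 in WT cells on day 3, and 267 in cKO and 0 in WT on day 0. XLOC_018401 (chr3:60341284-60343753, over *Tgif1-ps*) held most of these, with 6 and 179 fragments in cKO on day 3 and day 0. The locus next to *Mbnl1*, XLOC_018403, was present in every library, at 4.95 FPKM in cKO and 4.13 in WT on day 3, against 27.3 in cKO and 18.5 in WT on day 0. XLOC_018404 and XLOC_018405 held 16 and 10 fragments in cKO and 3 each in WT on day 0. *Mbnl1* itself had 204 and 146 FPKM in cKO and WT on day 3, against 232 and 158 on day 0. The next named gene beyond, *P2ry1*, a purine receptor gene, had 2.18 and 4.33 FPKM in cKO and WT on day 3, against 0.0614 and 0.412 on day 0. Each genotype is 1 library at each time, so a property of the mice used and the loss of CIC cannot be told apart.

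**Figure D5:**
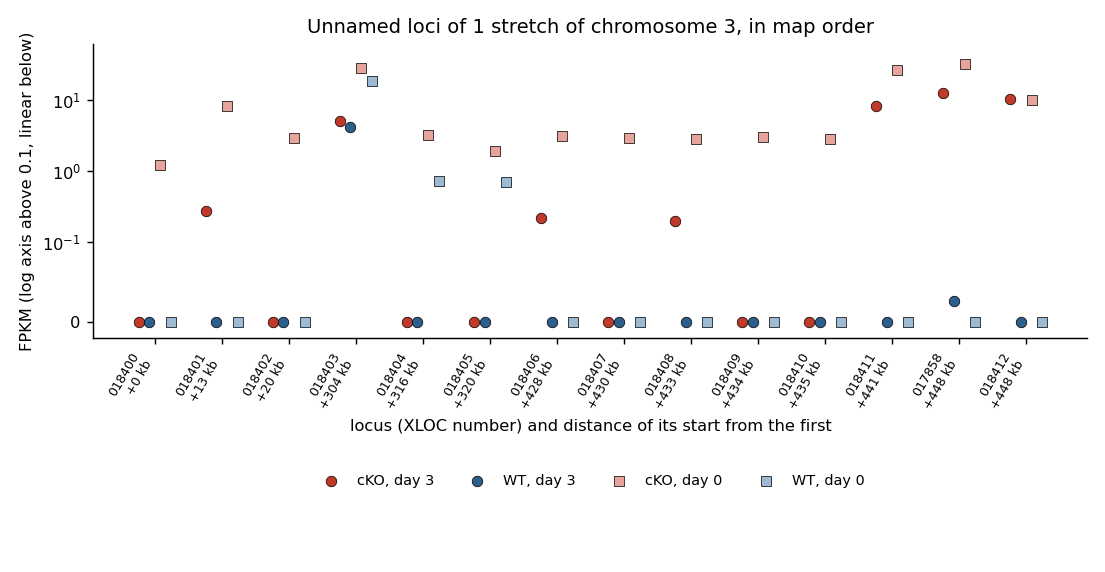
FPKM (vertical, log axis above 0.1 and linear below) of the 14 unnamed loci on both sides of *Mbnl1*, in map order (horizontal, with the distance from the first), in the 4 libraries. In 11 of the 14 both WT libraries are under 0.1 FPKM, while XLOC_018411 reaches 8.05 FPKM on day 3 and 25.7 FPKM on day 0 in cKO.

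Across all members 56 were at 0 in both WT libraries and 13 at 0 in both cKO libraries. Most were shallow. Of the first, 4 held at least 20 recovered fragments in cKO, 3 of them in the chromosome 3 stretch (XLOC_018401, XLOC_018409 and XLOC_018411) and XLOC_020750, 4422 bp from *Rhoh*, a T-cell GTPase gene, with 4.66 FPKM in cKO and 0 in WT on day 0. Of the 10 with whole counts among the second, none held as many in WT.

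A run of 9 coordinates and 21 members (chr9:61670376-61730292), at 182990 to 242154 bp from the nearest named locus, the ribosomal stalk protein gene *Rplp1*, also chosen after its values were seen, was high in 1 library. It summed to 84.1 FPKM in cKO and 13.5 in WT on day 3, against 10.5 in cKO and 12.3 in WT on day 0. In 19 of 21 members cKO was higher than WT on day 3 by the rule, with log2 ratios from 2.02 to 6.07, and the other 2 had 0.86 and 1.26. The 8 members with recovered fragments held 410 in cKO and 55 in WT on day 3, against 39 in cKO and 47 in WT on day 0. The cKO day 3 library alone stood apart there. Since the members adjoin or share coordinates, they are not separate cases.

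Other loci of extreme genotype ratio were short or shared. XLOC_014629, at the coordinates of *Rab11fip2* (chr19:59896986-59943654), had 8.17 FPKM in cKO and 0 in WT cells on day 3, and 1.65 and 0 on day 0. XLOC_010457 (chr16:19065244-19200290), over λ light chain segments, was the reverse, with 0.0279 FPKM in cKO and 6.92 in WT on day 3, against 0.000421 in cKO and 0 in WT on day 0. XLOC_014491 (chr19:11878227-11878389, pseudogene *Gm6365*) had 2.83 and 28.1 FPKM in cKO and WT on day 3, and 2.94 and 0 on day 0. Both were thus high in WT day 3 alone. XLOC_031062 (chrX:167104050-167104348) had 0 and 6.69 FPKM in cKO and WT on day 3, and 0 and 0.803 on day 0. XLOC_005273 (chr11:48799577-48799946) had 0.453 and 5.66 FPKM in cKO and WT on day 3, which is 1 and 12 fragments. Both were low in cKO on day 3. On day 0, XLOC_001636 (chr1:125387232-125387525) had 0 FPKM in cKO and 9.11 in WT. XLOC_001397 (chr1:40368529-40368803) had 0.761 and 10.3 FPKM in cKO and WT on day 0, and was at 0 in both on day 3. Both of these were high in WT day 0 alone. XLOC_005344 (chr11:61407800-61407977, *n-TWcca5*, a tryptophan tRNA gene) had 0 and 8.27 FPKM in cKO and WT on day 0, and 23.4 and 21.3 on day 3.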

How the data were processed

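RNA of 4 libraries, 1 for each genotype and time, was analysed. Total RNA was extracted, and the methods of the study describe TruSeq libraries for mRNA sequencing. Per the submitters' processing notes, CASAVA, TopHat2 2.0.10, Cufflinks 2.1.1 and mm9 were used. The authors deposited FPKM, normalized to library and transcript length, in 4 tables. The tables of day 3 against day 0 gave each library's FPKM; those headed cKO against WT were deposited as other values, weighted means of libraries, and gave only a common scale. Fold changes, p-values and q-values of the authors and 16 annotation tables were not used, and 0 value columns were left unmapped. Read depth is unknown beyond recovered fragments: FPKM of members that stood alone, of at least 300 bp, was divided by the value of 1 fragment at that length. FPKM of 0 can be a failed estimate. The deposited status words mark 0 of the 7242 members as failed in either genotype, and 456 in cKO and 1335 in WT as not tested.

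Members and lists were chosen with earlier results of these data known. Loci named were the 10 highest on day 3 and 5 highest on day 0 in each genotype, the 5 highest and 5 lowest log2 ratios of each comparison with at least 5 FPKM, the 5 highest by mean of at least 10000 bp and of at least 200 bp outside named loci, and 2 on each side of the minimum. Others were named after their values were seen. Of the B-cell and erythroid markers, 1 each is not reported here and was left out of the sums. A log2 ratio with 0.1 added understates changes of low loci. Alternatives were pseudocounts, FPKM minima, another size rule, centring, a common scale, length and zero filters and, added after seeing the data, a fragment minimum and the exclusion of loci shared with a named gene. Python 3.11.15, numpy 2.4.6, pandas 2.3.3, scipy 1.17.1 and matplotlib 3.10.9 were used, and the calculation was tested on simulated data.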

Additional observations from a re-analysis of the deposited data

Results flagged for a closer look

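Among loci named for an extreme ratio, 4 moved in opposite directions in the genotypes by the size rule, and the difference between the genotypes was not tested. XLOC_001373 (chr1:34426748-34426956), 191 bp from *Mir5103*, had log2 ratios (day 3 over day 0) of 3.21 in cKO and -5.16 in WT, with 13.7 FPKM in cKO and 0 in WT on day 3, against 1.40 in cKO and 3.48 in WT on day 0. XLOC_016708 (chr2:9694627-9694854) had ratios of 7.07 in cKO and -4.86 in WT, with 13.4 and 0 FPKM in cKO and WT on day 3, against 0 and 2.81 on day 0. XLOC_023701 (chr6:22496391-22496517) had ratios of 8.60 in cKO and -1.51 in WT, with 38.6 and 7.65 FPKM in cKO and WT on day 3, against 0 and 22.0 on day 0. XLOC_023812 (chr6:52346684-52346838, pseudogene *Gm8129*) had ratios of -7.47 in cKO and 1.56 in WT, with 0 and 13.4 FPKM in cKO and WT on day 3, against 17.7 and 4.47 on day 0. All 4 measure under 300 bp, and no fragment counts were recovered for them.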

How the results depend on the processing

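No paired analysis was possible because each group is 1 library and all share replicate number 1. Of 91 alternative values, 52 stayed close to the reported one and 39 moved. The share of FPKM in unnamed loci was higher on day 3 than on day 0 over all loci, and lower on day 3 with loci of at least 200 bp and with loci above 0 in every library. With a pseudocount of 1 the counts of higher and lower loci were 460 and 1887 for activation in cKO, 375 and 1614 in WT, 155 and 60 for cKO over WT on day 3, and 169 and 89 on day 0. With an FPKM minimum of 5 they were 196 and 440 of 996 measured loci, 157 and 397 of 844, 76 and 31 of 509, and 90 and 62 of 964. A minimum of 20 recovered fragments (and at most 200) was a choice made after seeing the data. With it they were 151 and 1290 of 2128, 124 and 980 of 1575, 32 and 8 of 702, and 47 and 15 of 2007. Without a minimum the day 3 genotype counts were 950 and 559 of 7265. With a size threshold of 1 they were 844 and 425 on day 3, and 1207 and 609 on day 0. Fewer loci enter under the stricter minima, and no share over all loci stands beside these alternatives. The share of all FPKM in unnamed loci of at least 200 bp was 1.86% in cKO and 1.82% in WT cells on day 3, against 4.15% and 4.10% on day 0, and among loci above 0 in every library 2.17% and 2.35% on day 3, against 3.48% and 3.69%. The highest locus of at least 200 bp held 11.4%, 13.6% and 6.47% of unnamed FPKM in cKO and WT cells on day 3 and cKO cells on day 0. Depth limits the genotype comparison: the median locus with recovered counts held 4 fragments in cKO cells and 3 in WT cells on day 3, against 14.0 and 10.5 on day 0.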

Other observations

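A run of 11 unnamed loci on chromosome 7 (chr7:83186560-83211037), at 215168 to 239291 bp from the nearest named locus *4933430H16Rik*, was chosen after its values were seen. It summed to 1.57 FPKM in cKO and 0.0356 in WT on day 3, against 47.5 in cKO and 21.2 in WT on day 0. In cKO all 11 loci passed the size rule as lower on day 3, and in WT all 10 measured. Fragments recovered in 6 of them were 3 and 1 in cKO and WT on day 3, against 185 and 86 on day 0. The ratio of cKO to WT on day 0 ran from 0.43 to 1.52 and passed the rule in 1.

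A second run of 8 loci on chromosome 7 (chr7:63866825-63881386, 4847 to 17757 bp from *E030018B13Rik*) summed to 0.809 FPKM in cKO and 0.827 in WT on day 3, against 42.4 in cKO and 37.5 in WT on day 0. All 8 passed the rule as lower on day 3 in both genotypes. At 65211 to 109566 bp from *Thy1*, which encodes a surface glycoprotein of T cells, 10 loci (chr9:43928760-43978172) summed to 35.7 and 22.9 FPKM in cKO and WT on day 3, against 67.9 and 44.3 on day 0. In 9 of the 10 the cKO value was above the WT value on each day, and 1 passed the size rule on day 3 and none on day 0.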
